A study of Homo sapiens with 4 samples.

Results

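The chemokine genes were taken as all genes of the array whose name is CXCL, CCL, CX3CL or XCL followed by a number, which gave 41 of the 43305 genes measured. They comprised 14 CXCL genes, 25 CCL genes, CX3CL1 and XCL1. The rule used names alone, but the family was picked for description with earlier results of these data known. Gene expression had been measured with 4 one-colour Agilent arrays, 1 for each parental line (HN4 and HN30) and 1 for each resistant line (HN4/DDP and HN30/DDP). The parental lines are established human head and neck squamous cell carcinoma (HNSCC) lines, grown in DMEM with 10% FBS. The resistant lines were derived from them by raising the dose of the DNA-damaging platinum drug cisplatin step by step. They were kept in 20 μM cisplatin, and the sample labels give an exposure of 48 h. The sources do not settle whether RNA was taken after 48 h of renewed exposure or from cells kept in the drug throughout, and long-term resistance and drug exposure cannot be told apart. Whether a resistant line is a single clone is not stated in the sources at hand.

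Chemokines are small secreted proteins that guide the migration of leukocytes by binding G protein-coupled receptors. The CXC chemokines that carry a Glu-Leu-Arg motif (ELR), such as CXCL1 and CXCL8, act through CXCR2 and draw neutrophils. CXCL9, CXCL10 and CXCL11 are induced by interferons and act through CXCR3 on T cells, while the CC chemokines mainly attract monocytes, eosinophils, dendritic cells and lymphocytes. Squamous carcinoma cells are a known source of ELR chemokines, and NF-κB is a well-known activator of many of these genes.

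The name rule took in 6 ELR genes, CXCL1, CXCL2, CXCL3, CXCL5, CXCL6 and CXCL8. They lie in 1 block of chromosome 4, where their probes map between 74609265 and 74963044 (hg19). The 60 bases from -100 to -41 before the transcription start are shown for them and for CCL20, because these genes stood lower in HN30/DDP, and for CXCL11. Of the 4 genes higher in HN4/DDP, CXCL11 was the 1 whose promoter held the letters marked, and CCL3, CCL22 and CCL26, which had none, are not shown. The stretches come from RefSeq (GRCh38.p14), read 5′ to 3′ on the strand of the gene. Capitals mark the letters GGNNTTTCC of an NF-κB motif or their reverse complement.
CXCL1 (chr4:73869293-73869352, plus strand): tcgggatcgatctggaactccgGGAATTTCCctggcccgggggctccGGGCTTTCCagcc
CXCL2 (chr4:74099236-74099295, minus strand): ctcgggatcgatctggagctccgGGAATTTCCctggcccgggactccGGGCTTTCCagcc
CXCL3 (chr4:74038730-74038789, minus strand): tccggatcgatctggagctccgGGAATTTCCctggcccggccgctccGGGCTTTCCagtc
CXCL5 (chr4:73998718-73998777, minus strand): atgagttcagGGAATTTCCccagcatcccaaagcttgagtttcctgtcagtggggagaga
CXCL6 (chr4:73836578-73836637, plus strand): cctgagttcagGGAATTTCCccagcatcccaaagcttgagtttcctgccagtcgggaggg
CXCL8 (chr4:73740469-73740528, plus strand): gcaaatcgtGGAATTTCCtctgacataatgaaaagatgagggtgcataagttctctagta
CCL20 (chr2:227813742-227813801, plus strand): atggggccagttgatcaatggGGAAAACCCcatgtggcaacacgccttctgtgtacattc
CXCL11 (chr4:76036111-76036170, minus strand): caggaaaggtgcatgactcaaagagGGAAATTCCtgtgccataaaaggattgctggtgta

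The letters GGNNTTTCC were searched on both strands from 250 bases before to 50 bases after the start, where 30 of the 41 genes had an entry. CCL2 and CCL4L2 were among the 11 genes with none. At least 1 match was found in 9 of the 30 promoters, against 7.61% of the 27305 promoters searched. They were those of CXCL1, CXCL2, CXCL3, CXCL5, CXCL6, CXCL8, CXCL10, CXCL11 and CCL20. All 6 ELR promoters held the same 9 bases, GGAATTTCC, starting between -91 and -77. Those of CXCL1, CXCL2 and CXCL3 held GGGCTTTCC at -53 as well. The stretches shown for CXCL1, CXCL2 and CXCL3 are nearly alike, as are those for CXCL5 and CXCL6. The matches in these genes are therefore not independent of each other. The AP-1 letters TGANTCA were found in 7 of the 30 promoters, against 9.37% of all. They were those of CXCL8, CXCL11, CXCL14, CXCL17, CCL7, CCL24 and CCL27. The interferon response letters, GAAA and GAAA with any 2 bases between them, were found in those of CXCL9 and CXCL10, against 4.38% of all. The cyclic AMP response letters TGACGTCA were found in none of the 30, against 2.25% of all. No match overlapped a match of another motif. A match describes letters in the reference genome and is not a measured binding site.

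A level here is log2 of a gene's processed intensity minus the 75th percentile of its array, which was 444 to 496 in signal units. A difference is the level in the resistant line minus that in its parental line, in log2 units. A level says how bright a probe was and cannot be compared between genes. Between 55.3% and 63.6% of the spots of an array were well above background. No spot was saturated, and the arrays lay on 1 slide. As each condition had 1 array, a resistant and a parental array could be compared without a test only, at a precision set by the number of arrays. The scanner SD, computed from the error of each spot, is given beside a difference and leaves out the variation between cultures. A gene was counted as higher at a difference above 2 if the resistant array showed it well above background, and as lower at a difference below -2 if the parental array did. Where the dimmer side was not well above background, the fold is given as at least N-fold, against the lowest signal that the array showed well above background. In bulk RNA, fewer cells that express a gene and less RNA per cell cannot be told apart.

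In HN4/DDP, 4 chemokine genes were lower than in HN4, namely CXCL1, CXCL5, CXCL6 and CCL2, while 1.36% of all genes were counted as lower. In the same line 4 were higher, CXCL11, CCL3, CCL22 and CCL26, while 2.24% of all genes were counted as higher. CXCL11 and CCL22 were not well above background in HN4, and with dim signals raised to the lowest one detected CCL22 no longer counted (difference 0.22). In HN30/DDP, 8 were lower than in HN30: CXCL1, CXCL2, CXCL3, CXCL5, CXCL6, CXCL8, CCL2 and CCL20. The share over all genes was 1.80%. Only CCL4L2 was higher in HN30/DDP, where the share over all genes was 5.48%. The same 4 genes, CXCL1, CXCL5, CXCL6 and CCL2, were lower in both resistant lines, against 0.0808% of all genes. None was higher in both, against 0.688%, and none was opposite in the lines, against 0.166%. Among the 18227 genes whose probe has a RefSeq messenger RNA accession, the shares were 1.81% lower and 3.09% higher in HN4/DDP and 2.66% lower and 5.84% higher in HN30/DDP, with 0.104% lower in both, 1.12% higher in both and 0.230% opposite. The median difference of the 41 genes was 0.12 in HN4/DDP and -0.11 in HN30/DDP, beside -0.21 and -0.07 over all genes. It takes in 11 genes that no array showed well above background, and its value in HN30/DDP is that of CCL27, which is among them. The differences past the threshold lay in 13 of the 41 genes.

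**Figure D1:**
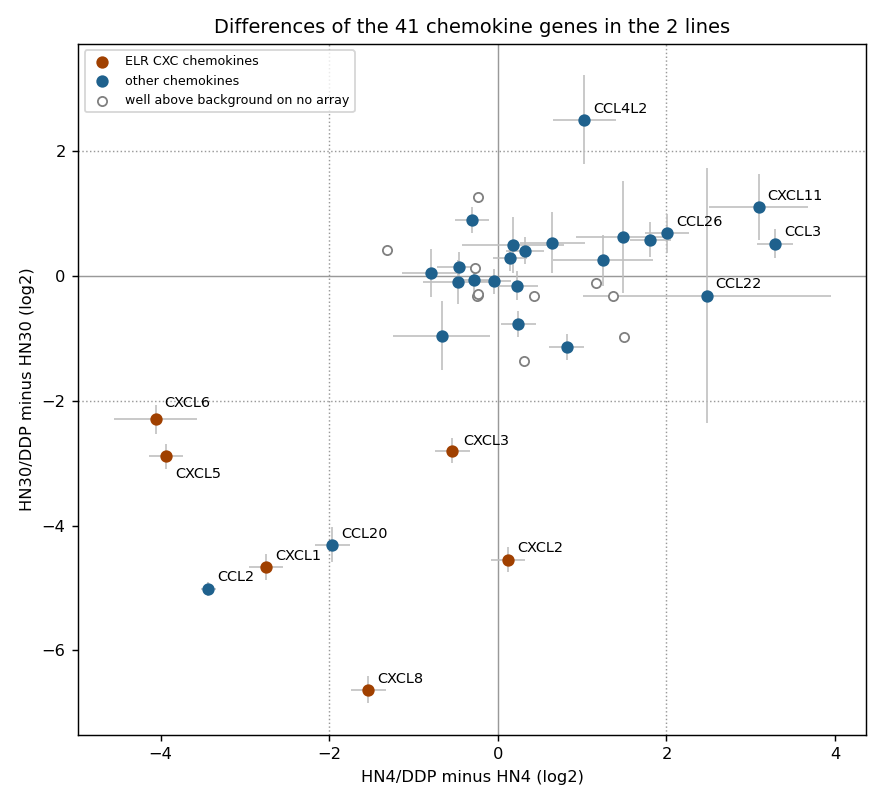
Each point is 1 of the 41 chemokine genes, with its log2 difference in HN4/DDP on the horizontal axis and in HN30/DDP on the vertical axis. Bars are the scanner SD, dotted lines mark a difference of 2 in either direction, and hollow points were well above background on no array. CXCL1, CXCL5, CXCL6 and CCL2 lie beyond the threshold in the lower left, and the 6 ELR genes all lie below -2 on the vertical axis.

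Resistant against parental over both lines was fitted with limma, with the line as a block and 1 residual degree of freedom. Of the 41 genes, 30 passed the filter, being well above background somewhere, and entered the fit of 29521 genes. The lines served as replicates, so p-values reflect the spread between them. No chemokine gene passed an adjusted p of 0.05, as did 0.00% of all genes in the fit. The smallest limma adjusted p was that of CCL2, 0.382. At an unadjusted p under 0.05, limma gave 9 chemokine genes, against 8.59% of all genes in the fit. CXCL1, CXCL5, CXCL6, CXCL8, CCL2 and CCL20 were the 6 with a negative estimate, and CXCL11, CCL4L2 and CCL26 the 3 with a positive one. By the probes used, CXCL11 and CCL4L2 were well above background on the resistant arrays alone and entered the fit through them. Their p-values thus rest on parental signals at background. This outcome depended on the scaling. With the median of each array in place of its 75th percentile, limma called 5 chemokine genes, CXCL1, CXCL5, CXCL6, CCL2 and CCL20, all lower, against 1.01% of all genes. That scaling moved the median difference of all genes to -0.49 in HN30/DDP.

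The ELR chemokines were the class with the lowest median difference in both lines, -2.14 in HN4/DDP and -3.72 in HN30/DDP. Class medians take in genes that no array showed well above background. Of the 4 monocyte attractants, CCL2, CCL7, CCL8 and CCL13, only CCL2 was detected, and its differences of -3.43 and -5.01 lay below the ELR medians. CXCL1, which attracts neutrophils and was first known as a melanoma growth factor, had a level of 8.18 in HN4 against 5.43 in HN4/DDP, and 8.80 in HN30 against 4.14 in HN30/DDP. Both resistant arrays were thus dimmer than both parental arrays, by 6.74-fold in the HN4 pair (difference -2.75, scanner SD 0.20) and 25.4-fold in the HN30 pair (difference -4.66, scanner SD 0.20). CXCL5, an epithelial neutrophil attractant, had a level of 3.42 in HN4 against -0.51 in HN4/DDP, and 3.41 in HN30 against 0.52 in HN30/DDP. The parental arrays were nearly alike, and the resistant arrays were 15.3-fold lower in the HN4 pair (difference -3.93, scanner SD 0.20) and 7.43-fold lower in the HN30 pair (difference -2.89, scanner SD 0.20).

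CXCL6, a close relative of CXCL5 that also binds CXCR1, had a level of -1.54 in HN4 and -1.16 in HN30. In HN4/DDP it stood at -5.60 and was not well above background, which makes it at least 11.0-fold lower than in HN4 (difference -4.06, scanner SD 0.49). In HN30/DDP it stood at -3.46, 4.92-fold lower than in HN30 (difference -2.30, scanner SD 0.23). Of the 4 genes lower in both lines, CXCL6 was the 1 whose count depended on the background correction. With limma's normexp its differences were -1.70 and -1.53, both inside the threshold. With 16 signal units added before the log, its difference in HN30/DDP was -1.95.

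CXCL8, also called interleukin-8, had a level of 2.49 in HN4 against 0.96 in HN4/DDP, and 3.57 in HN30 against -3.07 in HN30/DDP. The HN30/DDP array was far below the other 3, 99.3-fold lower than HN30 (difference -6.63, scanner SD 0.22), which was the lowest difference of any chemokine gene in either line. With normexp it was -5.70. In HN4/DDP the difference was -1.53 (scanner SD 0.20), inside the threshold. CXCL2, made by macrophages and epithelial cells and a ligand of CXCR2, had a level of 3.15 in HN4 against 3.27 in HN4/DDP, and 5.01 in HN30 against 0.46 in HN30/DDP. It was 23.4-fold lower in HN30/DDP (difference -4.55, scanner SD 0.20) and differed by 0.12 in HN4/DDP (scanner SD 0.20). CXCL3, its near neighbour on chromosome 4, had a level of -0.15 in HN4 against -0.69 in HN4/DDP, and 1.41 in HN30 against -1.39 in HN30/DDP. It was 6.96-fold lower in HN30/DDP (difference -2.80, scanner SD 0.21), beside a difference of -0.54 in HN4/DDP.

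All 6 ELR genes that the name rule took in were thus lower in HN30/DDP and 3 of them in HN4/DDP. Whether the 2 lines differ in CXCL2, CXCL3 and CXCL8 was not tested. In the parental lines the levels of CXCL2, CXCL3 and CXCL8 were higher in HN30 than in HN4, by 1.86, 1.57 and 1.08, also without a test. For CXCL2 the probes disagreed. Its second probe, at 74964342 to 74964401 of chromosome 4 (hg19), gave a difference of -1.94 in HN4/DDP, against 0.12 for the first, and -5.02 in HN30/DDP. A second probe of CXCL1 gave -2.84 in HN4/DDP and -5.36 in HN30/DDP, against -2.75 and -4.66 for the first. No pair among the 820 pairs of probes of different chemokine genes shared a run of more than 11 of the 60 bases, and the most ungapped matches in a pair were 32 of 60.

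**Figure D2:**
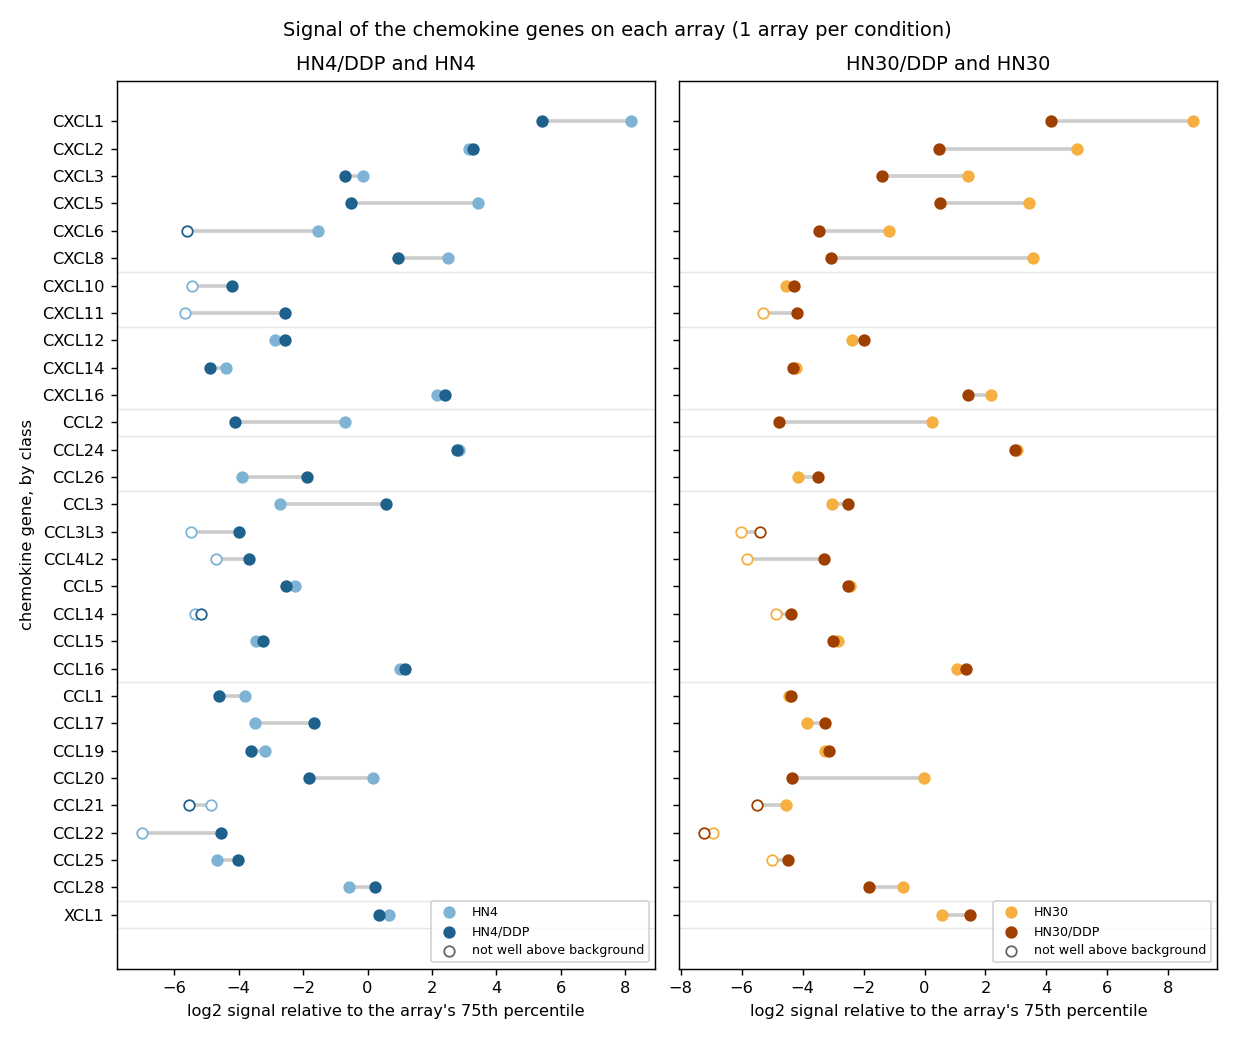
Levels of the 30 chemokine genes with 1 or more arrays well above background, in log2 signal relative to the 75th percentile of the array, with HN4 and HN4/DDP on the left and HN30 and HN30/DDP on the right. Hollow circles were not well above background, and the grey line joins the arrays of a pair. CXCL1, CXCL5, CXCL6 and CCL2 stand to the left of the parental circle in both panels, while CXCL8 ends at -3.07 in HN30/DDP and at 0.96 in HN4/DDP.

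CCL2 and CCL20 were the other genes counted as lower. CCL2, the main attractant of monocytes through CCR2, had a level of -0.69 in HN4 against -4.12 in HN4/DDP, and 0.24 in HN30 against -4.78 in HN30/DDP. Both resistant arrays were dimmer than both parental arrays, 10.8-fold in the HN4 pair (difference -3.43, scanner SD 0.09) and 32.3-fold in the HN30 pair (difference -5.01, scanner SD 0.11). With normexp these differences were smaller, -2.07 and -3.09, and stayed past the threshold. With 16 units added, the latter was -4.11. Its probe (chr17:32584050-32584109, hg19) is printed in 10 copies. The SD between copies was 0.03 on each parental array, 0.28 in HN4/DDP and 0.22 in HN30/DDP, where 5 of the 9 copies used were well above background. CCL20, the ligand of CCR6, had a level of 0.16 in HN4 against -1.81 in HN4/DDP, and -0.03 in HN30 against -4.34 in HN30/DDP. It was 19.8-fold lower in HN30/DDP (difference -4.31, scanner SD 0.28), with a difference of -2.71 under normexp and -3.61 with the 16 units added. In HN4/DDP the difference was -1.97 (scanner SD 0.21), just inside the threshold. The neighbours of CCL2 on chromosome 17, CCL7, CCL8, CCL11 and CCL13, were well above background on no array, and CCL1 was not counted in either line.

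The 4 chemokine genes counted as higher in HN4/DDP belong to different classes. CCL3, an inflammatory chemokine that binds CCR1, had a level of -2.72 in HN4 against 0.56 in HN4/DDP, and -3.03 in HN30 against -2.51 in HN30/DDP. The HN4/DDP array stood above the other 3, 9.75-fold higher than HN4 (difference 3.29, scanner SD 0.22), while the HN30 pair differed by 0.52. CXCL11, which draws activated T cells through CXCR3, had a level of -2.58 in HN4/DDP against -5.67 in HN4, where it was not well above background, and was at least 4.55-fold higher (difference 3.09, scanner SD 0.59). That bound holds for the reported processing, as the difference was 0.91 with normexp and 1.94 with 16 units added. In HN30 it stood at -5.28, not well above background, and in HN30/DDP at -4.18, a difference of 1.10 or at least 1.37-fold, which was -0.01 with normexp.

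CCL26, known as eotaxin-3 and a ligand of CCR3 on eosinophils, had a level of -3.89 in HN4 against -1.88 in HN4/DDP, and -4.16 in HN30 against -3.48 in HN30/DDP. Its difference in HN4/DDP was 2.01 (scanner SD 0.26), so it lay on the threshold, and in HN30/DDP it was 0.68. CCL22, a ligand of CCR4, was above background in HN4/DDP only, at -4.54 against -7.02 in HN4, which makes it at least 1.16-fold higher (difference 2.48, scanner SD 1.47). This was the largest scanner SD among the differences counted. In HN30 and HN30/DDP the levels of CCL22 were -6.93 and -7.24. With normexp, CXCL11, CCL22 and CCL26 no longer passed the threshold in HN4/DDP, the latter 2 at 0.51 and 1.08, and CCL3 was the 1 gene left (difference 2.52).

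CCL4L2, a copy of the CCL4 gene, was the 1 gene counted as higher in HN30/DDP. By its reported probe the level was -4.71 in HN4 against -3.68 in HN4/DDP, and -5.81 in HN30 against -3.31 in HN30/DDP. By that probe neither parental array was well above background. Another probe (chr17:34539699-34539758, hg19) was well above background in HN4, at -4.65, and not in HN4/DDP, at -5.36. By the reported probe the gene was at least 2.49-fold higher in HN30/DDP (difference 2.50, scanner SD 0.71). Its 4 probes gave differences from 0.48 to 2.50 in HN30/DDP, and their mean was 1.37, so the count rests on 1 probe. With normexp the gene's difference was 0.41. The gene has near-identical copies, and CCL4 under that name was not analysed here.

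The other chemokine genes detected above background were counted in neither line. CXCL16, a membrane-bound ligand of CXCR6, had a level of 2.17 in HN4 against 2.41 in HN4/DDP, and 2.18 in HN30 against 1.42 in HN30/DDP. CXCL12, the ligand of CXCR4, had a level of -2.88 in HN4 against -2.55 in HN4/DDP, and -2.38 in HN30 against -1.98 in HN30/DDP. CXCL14, an epithelial chemokine, had a level of -4.41, -4.88, -4.22 and -4.31 on the same arrays. By these probes none of the 3 differed by more than 1 in either pair. A second probe of CXCL16, well above background on all 4 arrays, gave 0.17 for the HN4 pair and -1.35 for the HN30 pair. In the latter the difference was -1.06 with the probes averaged and -1.19 with scaling by the median.

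CXCL10, the interferon-induced partner of CXCL11, had a level of -5.46 in HN4 (not well above background) against -4.21 in HN4/DDP, and -4.53 in HN30 against -4.28 in HN30/DDP. Its difference in HN4/DDP was 1.25, or at least 1.47-fold, and a second probe, dimmer on average and well above background in HN4/DDP only, gave 2.84. CCL5, which draws T cells and monocytes, had a level of -2.25 in HN4 against -2.54 in HN4/DDP, and -2.46 in HN30 against -2.52 in HN30/DDP. The CCL5 arrays differed by less than 0.3 in either pair. CCL3L3, a copy of CCL3, had a level of -5.47, -3.99, -6.01 and -5.38 in the same order and was well above background in HN4/DDP only. Its second probe gave a difference of 3.77 in HN4/DDP beside 1.48 for the first, so the 2 disagree on the threshold. The first probe's accessions include CCL3L1, so these copies cannot be told apart.

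CCL17, a ligand of CCR4 like CCL22, had a level of -3.49 in HN4 against -1.68 in HN4/DDP, and -3.86 in HN30 against -3.27 in HN30/DDP. It was brighter in HN4/DDP by 1.81, inside the threshold, and by 0.58 in HN30/DDP. CCL28, a mucosal chemokine that binds CCR10, had a level of -0.59, 0.23, -0.69 and -1.83 on these arrays, so it was brighter in HN4/DDP and dimmer in HN30/DDP than in the parental line, with differences of 0.82 and -1.14. CCL24, known as eotaxin-2, had a level of 2.83 in HN4 against 2.79 in HN4/DDP, and 3.05 in HN30 against 2.96 in HN30/DDP. Its difference of -0.04 in HN4/DDP was the smallest in size of the 41 genes, and the HN30 pair differed by -0.09. XCL1, the ligand of XCR1 on dendritic cells, had a level of 0.65, 0.35, 0.58 and 1.48 in the same order. The accessions of its probe include XCL2, so XCL1 and XCL2 cannot be told apart.

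The lymphocyte attractants CCL19, CCL21 and CCL25, which guide cells to lymphoid organs and the gut, were counted in neither line. Their levels and those of the remaining genes are given in the order HN4, HN4/DDP, HN30, HN30/DDP where no array is named. CCL19 had a level of -3.17 in HN4 against -3.63 in HN4/DDP, and -3.28 in HN30 against -3.14 in HN30/DDP. CCL21 was well above background in HN30 only, with levels of -4.87, -5.54, -4.54 and -5.50. CCL25 had levels of -4.67, -4.02, -5.00 and -4.46 and was not well above background in HN30. Among the remaining genes, CCL1 had levels of -3.81, -4.61, -4.44 and -4.39, and CCL16 of 1.01, 1.15, 1.06 and 1.35. CCL15 had levels of -3.48, -3.25, -2.84 and -2.99. CCL14 was well above background in HN30/DDP only, with levels of -5.37, -5.18, -4.87 and -4.36. The accessions of the CCL14 and CCL15 probes include the read-through transcript of both genes. None of these 7 genes passed the threshold in either pair.

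The other 11 chemokine genes were not well above background on any array: CXCL9, CXCL13, CXCL17, CCL7, CCL8, CCL11, CCL13, CCL18, CCL23, CCL27 and CX3CL1. For them the arrays give no fold. Of the whole family, 21 genes were well above background on all 4 arrays, 3 on 3 arrays, 2 on 2 arrays and 4 on 1 array. By array, 23 were detected in HN4 and 27 in HN4/DDP, beside 57.3% and 58.9% of all genes. In HN30 there were 24 and in HN30/DDP 27, beside 55.3% and 63.8% of all genes.

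Of 17 chemokine receptors, 8 were well above background on at least 1 array: CXCR2, CXCR3, CXCR5, CCR3, CCR6, CCR7, CCR10 and XCR1. None was counted in HN4/DDP, and CCR7, the receptor of CCL19 and CCL21, was the 1 counted in HN30/DDP. Its level was -4.43 in HN4 against -2.54 in HN4/DDP, and -5.16 in HN30 (not well above background) against -2.0 in HN30/DDP, at least 6.18-fold higher in the HN30 pair (difference 3.16, scanner SD 0.49). CXCR2, the receptor of the ELR chemokines, had a level of -4.50 in HN4 against -3.30 in HN4/DDP, and -5.90 in HN30 (not well above background) against -4.28 in HN30/DDP, with differences of 1.20 and 1.62, the latter at least 1.27-fold. CXCR1 and CXCR4 were well above background on no array. CXCR3, the receptor of CXCL11, had differences of -0.69 and -0.18, CCR6, the receptor of CCL20, of -0.17 and 0.91, and CCR10, the receptor of CCL28, of 0.11 and 1.59. XCR1, the receptor of XCL1, had differences of 0.19 and -0.98. CXCR5, the receptor of CXCL13, was well above background in HN30/DDP only, at least 1.82-fold higher than in HN30. CCR3, the receptor of CCL26, was well above background in HN4/DDP only, with a level of -4.86 against -5.80 in HN4, and the arrays give no fold for it. As 9 of the 17 receptors were well above background on no array, no median over them is given. Over all genes, 1.36% were lower and 2.24% higher in HN4/DDP, and 1.80% lower and 5.48% higher in HN30/DDP. Higher in both were 0.688%, and lower in both 0.0808%. These shares stand beside the counts of this list and of the lists below. None of the 5 receptors listed as atypical, which do not signal like the others, was counted in either line. The same held for PF4, PF4V1 and PPBP, chemokines under older symbols. PPBP also carries the ELR motif but falls outside the name rule, and it was well above background on no array.

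The NF-κB pathway was listed because many chemokine genes respond to it, and all 19 of its listed genes were well above background on all 4 arrays. None was counted in HN4/DDP, where their median difference was 0.31, and 2 were lower in HN30/DDP, where it was -0.70, beside -0.21 and -0.07 over all genes. NFKB1, which encodes the p105 and p50 subunit, had a level of 3.28 in HN4 against 2.48 in HN4/DDP, and 3.37 in HN30 against 0.66 in HN30/DDP (differences -0.81 and -2.71). TNFAIP3, the A20 protein that restrains the pathway, had a level of 0.50 in HN4 against 1.87 in HN4/DDP, and 1.44 in HN30 against -0.83 in HN30/DDP, so its differences, 1.37 and -2.27, had opposite signs. RELA, the p65 subunit, differed by 0.31 and -0.11.

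Among 17 cytokines and receptors that can induce chemokines, IL6 was the 1 gene lower in HN4/DDP, with a level of 1.00 in HN4 against -1.31 in HN4/DDP, and -0.34 in HN30 against -0.84 in HN30/DDP (differences -2.32 and -0.50). In HN30/DDP, TNF was lower and oncostatin M (OSM) was higher. TNF had a level of 0.91 in HN4 against 2.46 in HN4/DDP, and 3.19 in HN30 against 0.99 in HN30/DDP, and OSM stood at -4.47 in HN30 and -1.84 in HN30/DDP and was not well above background in the HN4 pair. IL1B differed by -0.73 and 0.15. Of 8 genes of the interferon axis, IRF7, a transcription factor of interferon signalling, was higher in HN4/DDP (difference 2.36, scanner SD 0.20). None was counted in HN30/DDP. The median difference of the 8 was 0.47 in HN4/DDP and 0.55 in HN30/DDP, beside -0.21 and -0.07 over all genes. Whether these genes act on the chemokine genes was not tested.

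Of 10 proteases that cut chemokines, DPP4, which trims the amino end of CXCL10, CXCL11 and other chemokines, was higher in both resistant lines. Its level was -5.22 in HN4 (not well above background) against -1.61 in HN4/DDP, and -4.34 in HN30 against -1.81 in HN30/DDP. Both resistant arrays stood above both parental ones, at least 8.87-fold in the HN4 pair (difference 3.61) and by 2.53 in the HN30 pair (scanner SD 0.32). In HN30/DDP the collagenase MMP1 was lower (difference -2.48) and neutrophil elastase, ELANE, was at least 1.5-fold higher.

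**Figure D3:**
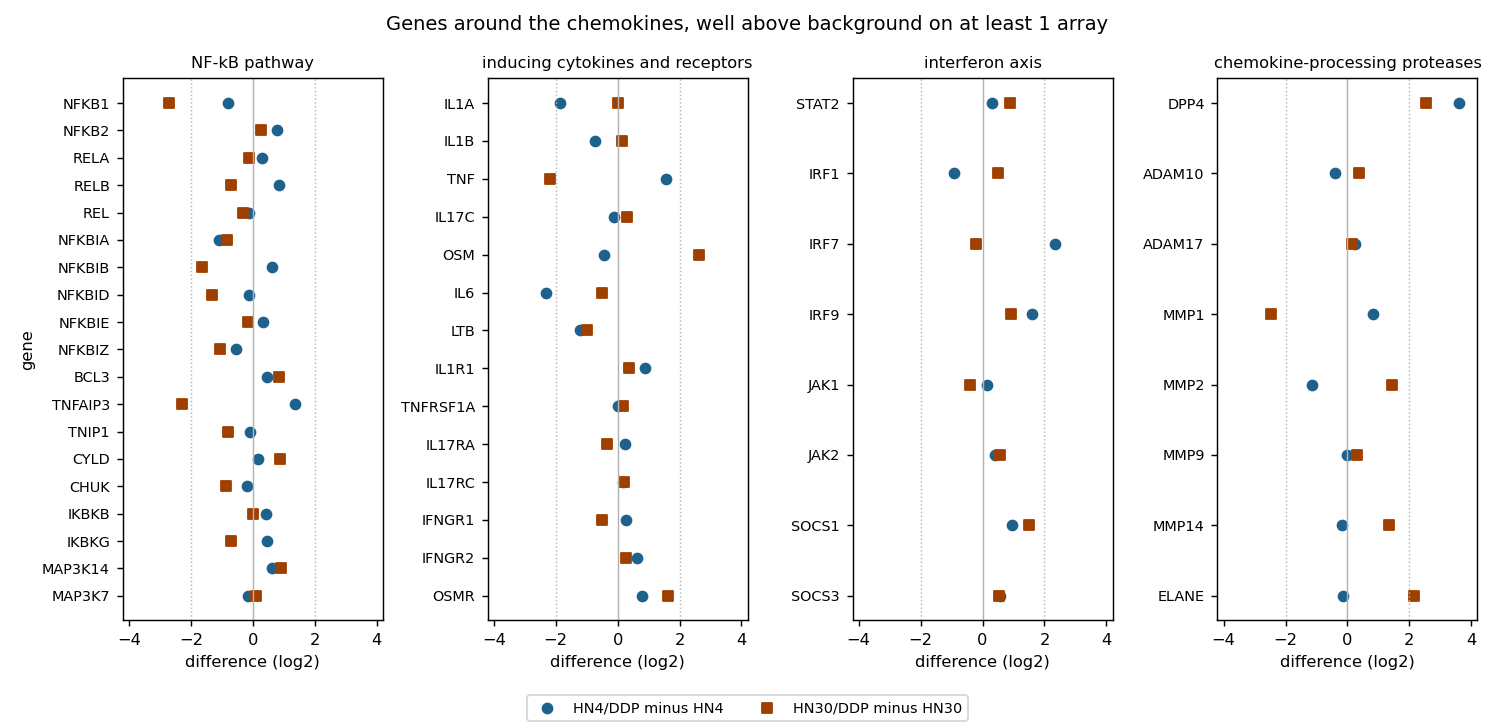
Log2 differences of the listed NF-κB, cytokine, interferon and protease genes that were well above background on at least 1 array, with circles for HN4/DDP minus HN4 and squares for HN30/DDP minus HN30. Dotted lines mark the threshold of 2 in either direction. DPP4 lies above it in both lines, and NFKB1, TNFAIP3 and TNF lie below it in HN30/DDP.

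Markers of the cells were read from the same arrays. All 9 squamous epithelial markers were well above background on 3 arrays and 8 on the HN30/DDP array, where KRT6A, a keratin of stressed and wounded epithelium, was not and stood at least 183-fold lower than in HN30 (difference -8.44). In HN4/DDP the keratins KRT6A, KRT14 and KRT17 were counted as higher and KRT5 as lower. Of 7 leukocyte markers, 5 were well above background on 3 arrays and 6 in HN30/DDP. Their summed level, in log2, was 2.92 in HN4 against 3.69 in HN4/DDP, and 2.12 in HN30 against 5.34 in HN30/DDP, where CD14 and ITGAM were counted as higher. The sum adds signals of different probes and is mostly CD14, which had a level of 1.82 in HN30 against 5.30 in HN30/DDP. In the same pair CD3D differed by -0.67 and CSF1R by -0.11, and CD3E, well above background in HN30/DDP only, was at least 1.38-fold higher. The pan-leukocyte marker PTPRC stood between -3.10 and -2.84 on the 4 arrays, and the B cell marker MS4A1 was well above background on none. Of 7 fibroblast markers, 3 were well above background on each array, with COL1A2, COL3A1, DCN and LUM on none. FAP was counted as lower in both resistant lines (-2.74 and -2.41), and COL1A1 as higher in HN30/DDP (2.43). Of 5 endothelial markers, 2 or 3 were, with KDR and TEK on none. In HN4/DDP, VWF was counted as higher (2.43, at least 5.37-fold) and PECAM1 as lower (-2.88, at least 2.05-fold), each against an array that did not show it well above background. The part of these markers in the chemokine differences was not tested.

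**Figure D4:**
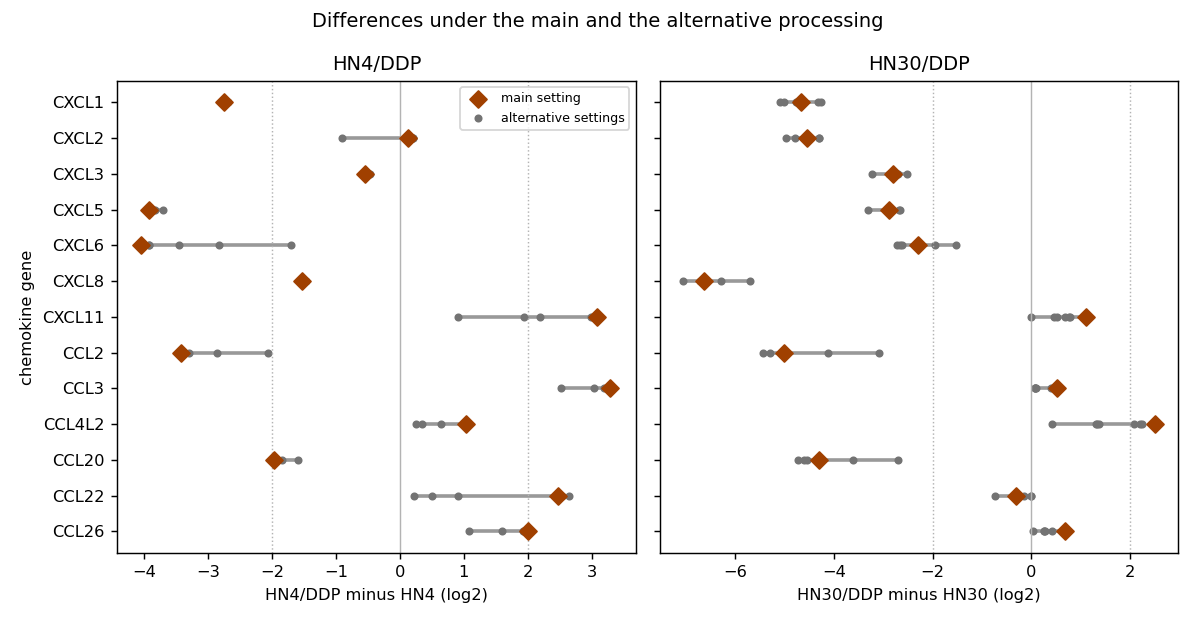
Differences of the 13 chemokine genes counted in at least 1 line, in HN4/DDP on the left and HN30/DDP on the right, on the log2 scale. Diamonds are the reported values, small points the alternative processing, and dotted lines the threshold of 2 in either direction. CXCL1, CXCL5 and CCL2 stay below -2 in both lines at every point, and CXCL11, CCL22 and CCL26 cross 2 in HN4/DDP.

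Across the alternative settings, the difference of CXCL1 ran from -2.80 to -2.69 in HN4/DDP and from -5.08 to -4.25 in HN30/DDP. For CXCL5 the ranges were -3.93 to -3.71 and -3.31 to -2.66. For CCL2 they were -3.43 to -2.07 and -5.43 to -3.09. These 3 genes were below -2 in both lines under every setting tried. CXCL8 ran from -7.05 to -5.70 and CCL20 from -4.73 to -2.71 in HN30/DDP, also below -2 throughout. At a threshold of 1 in place of 2, 8 chemokine genes were higher in HN4/DDP, against 5.77% of all genes, and 2 in HN30/DDP, against 12.9%. Higher in both were then 2, against 2.66%. At that threshold 6 were lower in HN4/DDP, against 5.36% of all genes, 9 in HN30/DDP, against 8.67%, and 6 in both, against 1.18%, with CXCL8 and CCL20 added to the 4.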

How the data were processed

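RNA of 4 samples was hybridised to Agilent SurePrint G3 Human v3 arrays, 1 per condition. The authors deposited the scanner output, in which Feature Extraction 10.7.1.1 gave each spot a background-subtracted processed intensity, its error and other flags (outlier, well above background). A second deposited file holds log2 values whose quantiles are the same on every array (median 4.65). Background correction and scaling both affect dim genes.

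From the intensities, outlier spots were dropped, spots of a probe were averaged as log2, the 75th percentile over non-control spots was subtracted, and each gene kept its probe with the highest mean. A probe counted as well above background where at least 0.5 of its spots were. The members and gene lists were chosen with earlier results of these data known. Every chemokine gene well above background on an array was named, and of the other lists the receptors so detected and the genes counted (at most 4 per list and pair). Names of 38 of the 41 genes were matched by accession to RefSeq GRCh38.p14, while CCL16, CCL27 and CX3CL1 kept the array's name. The motifs were also chosen with results known. Of the other lists, 3 genes are not reported here and were left out of the counts and medians.

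Resistant and parental arrays were compared by differences, and over both lines with limma 3.58.1 (R 4.3.3, eBayes with trend, Benjamini-Hochberg adjustment), which was tested on simulated data. The rest was done in Python 3.11.15 (pandas 2.3.3, numpy 2.4.6). Alternatives were normexp with an offset of 50, scaling by the median, quantile normalization, the deposited table, a pseudocount of 16, the mean of probes, other handling of dim signals, a threshold of 1 and other limma models.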

Additional observations from a re-analysis of the deposited data

Results flagged for a closer look

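Of the 41 chemokine genes and the other listed genes reported here, 5 differed by more than 1 (log2) in opposite directions in the lines, and none of them was a chemokine gene. With 1 array per condition these contrasts between the lines were not tested. TNFAIP3 differed by 1.37 in the HN4 pair and -2.27 in the HN30 pair. TNF differed by 1.55 in the HN4 pair and -2.19 in the HN30 pair. Both belong to the signalling around NF-κB. The protease MMP2 differed by -1.14 in the HN4 pair and 1.44 in the HN30 pair. The keratin KRT6A differed by 3.32 in the HN4 pair and -8.44 in the HN30 pair, where HN30/DDP did not show it well above background (at least 183-fold lower). The endothelial marker PECAM1 differed by -2.88 in the HN4 pair and 1.10 in the HN30 pair, and was well above background on 1 array of each pair. Against the lowest signal well above background it was at least 2.05-fold lower in HN4/DDP and at least 1.64-fold higher in HN30/DDP, and the latter bound is less than a difference of 1.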

How the results depend on the processing

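The counts of chemokine genes that were lower in HN4/DDP, in HN30/DDP or in both stayed within 1.5 times their reported values under every alternative tried, while the counts of higher genes did not. The 4 genes higher in HN4/DDP became 1 with normexp and with a pseudocount of 16, 2 where both arrays of a pair had to be well above background, and 8 at a threshold of 1. The 1 gene higher in HN30/DDP became 0 with normexp, with the pseudocount, with its probes averaged, with dim signals set to the lowest signal well above background, and where both arrays had to be well above background, and 2 at a threshold of 1. That threshold also gave 2 genes higher in both lines, CXCL11 and CCL4L2, in place of 0, and for CCL4L2 in HN4/DDP it held for the reported probe (1.03) and not for the mean of its probes (0.34). The limma count went from 0 to 5 with scaling by the median, and the smallest adjusted p of a chemokine gene was then 0.00190. Under the other limma alternatives it ran from 0.237 to 0.699, with 0 chemokine genes called. The 0.699 came from the fit with dim signals raised to that same floor, an alternative to limma chosen after seeing the data. The cause of these shifts was not tested. Of 465 differences of named genes under the alternatives, 340 moved by less than the scanner SD, 125 moved by more and 0 of the counted ones changed sign. Among those inside the threshold, 14 differences took the opposite sign under an alternative, such as CXCL2 in HN4/DDP (0.12, and -0.91 with its probes averaged) and CCL24 in HN30/DDP (-0.09, and 0.29 with quantile normalization). The limma fit pairs the resistant and parental array of a line through the line block, and without that block the smallest adjusted p was 0.237. By replicate number no paired analysis was possible, because each condition has 1 array and all 4 carry the number 1.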
